A study of Bos taurus with 4 samples.

Results

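Y RNA fragments were the reads that the files name with the RNA family RF00019, the Y RNA family. They were followed in small RNA libraries of bovine (Bos taurus) oocytes at the GV stage, when the nucleus of the growing oocyte, the germinal vesicle, is still whole. There were 4 libraries: 2 of input RNA, prepared with no antibody, and 2 of RNA that came down with an anti-Tdrkh antibody, called TDRKH IP here. All 4 came from oocytes of the same stage with no other treatment on the labels, and the labels do not say whether the 2 libraries of a group hold RNA of different oocytes. The p-values therefore speak for the spread of these 4 libraries, which may be technical. Of 38611 names in the files, 13 were Y RNA names, and of 2468643 distinct sequences, 902 carried one. No Y RNA sequence also carried a name of another kind.

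Y RNAs are short noncoding RNAs made by RNA polymerase III. Their 2 ends pair into a stem, the loop joins the arms, and the 3′ end carries a run of uridines. In human cells the stem is bound by the Ro60 protein and the uridine tail by La, and full-length Y RNAs have been linked to RNA quality control and to the start of DNA replication. Fragments from both ends are found in many cells and body fluids. TDRKH is a Tudor and KH domain protein of the mitochondrial surface that holds PIWI proteins, the partners of piRNAs, during piRNA maturation. The series asks which proteins and small RNAs TDRKH and PIWIL3 hold in oocytes, and the comparison of TDRKH IP with input tells which small RNAs took a larger or smaller share of the library after the antibody step.

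The sequences on which the results turn came from both ends of the Y RNA. All 3 large groups of Y RNA names shared the same first 11 bases, in capitals in the 5′ fragments here, and the same 6 bases TTGACT near the other end, in capitals in the 3′ fragments. Letters are as in the files, with T for U. The groups A, B and C are sets of names that share sequences and are described further on.
Group A 5′, 33 nt: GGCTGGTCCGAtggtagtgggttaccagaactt
Group A 5′, 36 nt: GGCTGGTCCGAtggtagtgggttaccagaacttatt
Group B 5′, 34 nt: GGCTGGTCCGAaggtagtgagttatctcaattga
Group B 5′, 25 nt: GGCTGGTCCGAaggtagtgagttat
Group C 5′, 31 nt: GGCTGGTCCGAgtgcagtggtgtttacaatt
Group C 5′, 25 nt: GGCTGGTCCGAgtgcagtggtgttt
Group C 5′, 24 nt: GGCTGGTCCGAgtgcagtggtgtt
Group A 3′, 28 nt: ccccccactgctaaatTTGACTggcttt
Group A 3′, 27 nt: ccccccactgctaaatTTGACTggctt
Group B 3′, 28 nt: cttctcactactgcacTTGACTagtctt
Group C 3′, 27 nt: ctcccactgcttcacTTGACTagcctt

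Y RNA took a much smaller share of the TDRKH IP libraries than of the input. Input 1 held 738 Y RNA reads among 1079364 listed reads and input 2 held 1161 among 1354003. TDRKH IP 1 held 203 among 11138905 and TDRKH IP 2 held 279 among 11060320. In RPM, reads scaled to 1000000 listed reads, these were 684 and 857 in the inputs, and 18.2 and 25.2 in the IPs, so the groups did not overlap. The Wilson 95% intervals, which cover counting error only, were 636 to 735, 810 to 908, 15.9 to 20.9 and 22.4 to 28.4 RPM. The means were 771 ± 123 RPM (SD, n = 2) in input and 21.7 ± 4.95 in TDRKH IP, 35.5-fold lower. In edgeR's quasi-likelihood test over 27 RNA families the log2 change was -5.15 ± 0.25 (SE), with a Benjamini-Hochberg adjusted p = 1.58e-26. Of the families tested, 81.5% were lower in the IP and 11.1% higher, with a median log2 change of -1.98, so a lower share was the common case and Y RNA lay 3.16 below the median. Bovine microRNAs fell by 4.75 on the log2 scale, and with microRNA reads in place of all listed reads as the library size the Y RNA change was -0.41 (adjusted p = 0.0972).

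The sums of cell type markers were also lower in the IPs. The 3 oocyte microRNAs listed (miR-10a, miR-30d, miR-92a) summed to 3696 and 4270 RPM in input and to 37.5 and 48.7 in IP, while reads of piRNA clusters were 88.8% and 87.8% of listed reads in input and 96.9% and 96.8% in IP. Of 5 cumulus and granulosa cell microRNAs, 5 had reads in input and 4 in IP, with sums of 449 and 505 RPM against 6.28 and 12.7. The liver and serum microRNA miR-122 was at 435 and 335 RPM in input and 1.71 and 2.35 in IP. The 4 leukocyte microRNAs, 3 of them with reads in input and 1 in IP, summed to 60.7 and 49.5 RPM against 0.628 and 0.316. The 3 erythroid microRNAs had no reads in any library. Whether Y RNA from other cells had a part in the input level was not tested.

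The 5′ end of Y RNA made up a larger share of the Y RNA reads in the IPs than in the inputs. A 5′ fragment was a read that begins with GGCTGG or, with the first base absent, with GCTGG. These made up 181 of 738 Y RNA reads in input 1, 24.5% (Wilson 95% interval 21.6 to 27.8), and 350 of 1161 in input 2, 30.1% (27.6 to 32.8). In TDRKH IP 1 they were 138 of 203, 68.0% (61.3 to 74.0), and in TDRKH IP 2 they were 185 of 279, 66.3% (60.6 to 71.6). Both IP libraries lay above both inputs, with means of 27.3% ± 3.97 and 67.1% ± 1.18 (SD, n = 2), and the exact two-sided permutation p was 0.333, the smallest that 2 against 2 libraries can give.

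The 3′ fragments made up a smaller share in the IPs. By a definition chosen after seeing the sequences, a 3′ fragment was a read outside the 5′ class that holds TTGACT. There were 436 and 693 such reads in the inputs, 59.1% and 59.7% of Y RNA reads, and 41 and 70 in the IPs, 20.2% and 25.1%. The remaining 121, 118, 24 and 24 reads fell in neither class. They include reads of the 5′ end that had lost more than its first base, such as 11, 32, 6 and 5 reads that lacked its first 2 bases. The ratio of 5′ to 3′ reads was 0.415 and 0.505 in the inputs and 3.37 and 2.64 in the IPs. This ratio does not depend on the library size used. In RPM, 3′ fragments went from 458 ± 76.3 to 5.005 ± 1.87, 91.5-fold lower, and 5′ fragments from 213 ± 64.2 to 14.6 ± 3.07, 14.6-fold lower. The search letters were not particular to Y RNA: TTGACT stood in 1.05% of all listed input reads and 1.26% of IP reads, and reads beginning with GGCTGG or GCTGG were 0.0494% and 0.0219%. The full 11-base start was found in no read outside the Y RNA names.

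**Figure D1:**
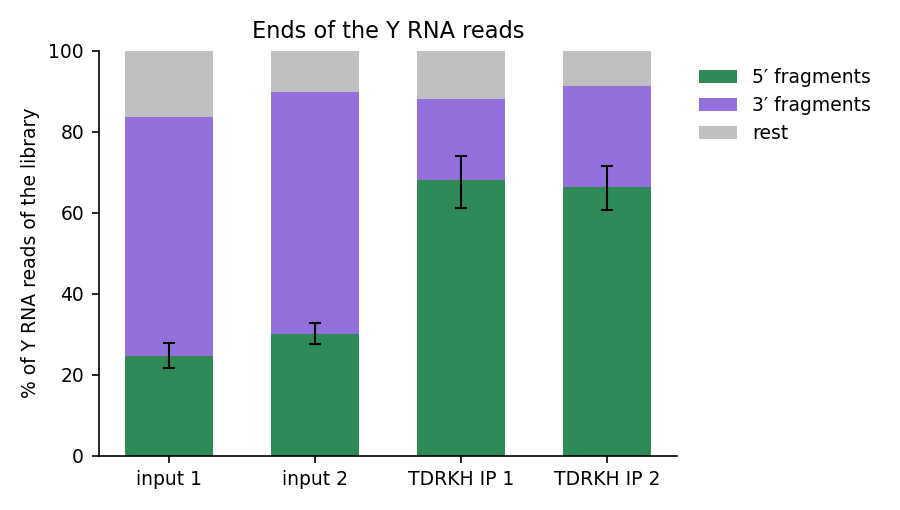
Share of each library's Y RNA reads that are 5′ fragments, 3′ fragments or neither, in % of Y RNA reads, with Wilson 95% intervals on the 5′ share. The 5′ share is 24.5% and 30.1% in the inputs and 68.0% and 66.3% in the TDRKH IPs.

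The fit by end used another 3′ class, reads outside the 5′ class that end in at least 3 T, with or without TTGACT. It therefore also takes in a group C read of the 5′ end that lacks its first bases. Of the 29 families and end classes tested, 82.8% were lower in the IP and 6.9% higher. All 3 Y RNA classes were lower. Reads ending in 3 T were at 111 and 174 RPM in the inputs and 0.628 and 1.63 in the IPs. They reached the count filter's cutoff of 1.61 RPM in both inputs but not in both IPs. Their log2 change of -6.97 ± 0.43 is therefore a description. The class that was neither changed by -6.10 ± 0.31 (edgeR adjusted p = 1.60e-26). For 5′ fragments the log2 change was -3.88 ± 0.31 (adjusted p = 5.03e-18) with all listed reads as the library size. It turned to 0.87 (adjusted p = 0.0523) with microRNA reads as the library size. The difference between classes was not itself tested in that fit. The log2 ratio of 5′ to all other Y RNA reads was -1.42 ± 0.29 in input and 1.03 ± 0.08 in IP, and the groups did not overlap (exact permutation p = 0.333).

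Most 5′ fragments began at the same base. In input 1, 148 reads began with the full start, 21 lacked the first base and 11 lacked the first 2, and input 2 held 309, 20 and 32. In IP 1 only 5 reads lacked the first base and 6 the first 2, and in IP 2 there were 174, 8 and 5. Reads that lacked more than 1 base fell outside the 5′ class as defined.

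The length of the 5′ fragments also differed between input and IP. In the inputs most 5′ reads were 29 to 36 nt long, with a small peak at 23 nt, and in the IPs there was a peak at 24 to 25 nt beside one at 31 to 33 nt. Reads of at most 26 nt were 26 of 181 5′ reads in input 1 (14.4%, Wilson 95% interval 9.995 to 20.2) and 71 of 350 in input 2 (20.3%, 16.4 to 24.8). They were 74 of 138 in TDRKH IP 1 (53.6%, 45.3 to 61.7) and 80 of 185 in TDRKH IP 2 (43.2%, 36.3 to 50.4), above both inputs. Fragments of at most 26 nt went from 38.3 ± 20.05 to 6.94 ± 0.417 RPM, 5.51-fold lower, and those of 27 to 36 nt from 175 ± 44.2 to 7.62 ± 2.65 RPM, 22.9-fold lower. The mean 5′ length was 31.5 and 31.0 nt in the inputs and 27.4 and 28.4 nt in the IPs. Listed lengths ran from 18 to 36 nt, so longer fragments, if any, do not enter these values. At the limit of 36 nt lay 26 and 35 of the 5′ reads in the inputs and 1 and 3 in the IPs.

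Most of the difference in short 5′ fragments lay at 24 and 25 nt, 24.2 of 31.1 percentage points between the group means. There were 13 and 24 such 5′ reads in the inputs, 7.18% and 6.86% of 5′ reads, and 48 and 51 in the IPs, 34.8% and 27.6%. Over all listed reads, reads of 24 or 25 nt were 31.1% and 30.2% of the inputs and 32.3% and 32.3% of the IPs, nearly level between the groups. In RPM these 5′ fragments were at 12.04 and 17.7 in the inputs and 4.31 and 4.61 in the IPs. The 5′ reads of 18 to 22 nt also took a larger share of the IPs, with 0 and 6 reads in the inputs (0% and 1.71%) and 20 and 17 in the IPs (14.5% and 9.19%). The peak at 23 nt was in the inputs, with 13 and 37 reads against 1 and 7 in the IPs. With each distinct sequence counted once, the difference at 24 and 25 nt was 10.8 points and that up to 26 nt was 34.6 points.

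The 3′ fragments had more similar lengths in both groups, but their mean was also shorter in the IPs. They were most often 27 to 29 nt long in input. The mean was 28.2 and 28.6 nt in the inputs and 27.2 and 27.2 nt in the IPs, where the counts are 41 and 70 reads. Those of at most 26 nt were 24.5% and 16.5% of 3′ fragments in the inputs and 31.7% and 31.4% in the IPs. The difference between the group means was 11.1 points, and -4.95 points with rows of a single name.

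**Figure D2:**
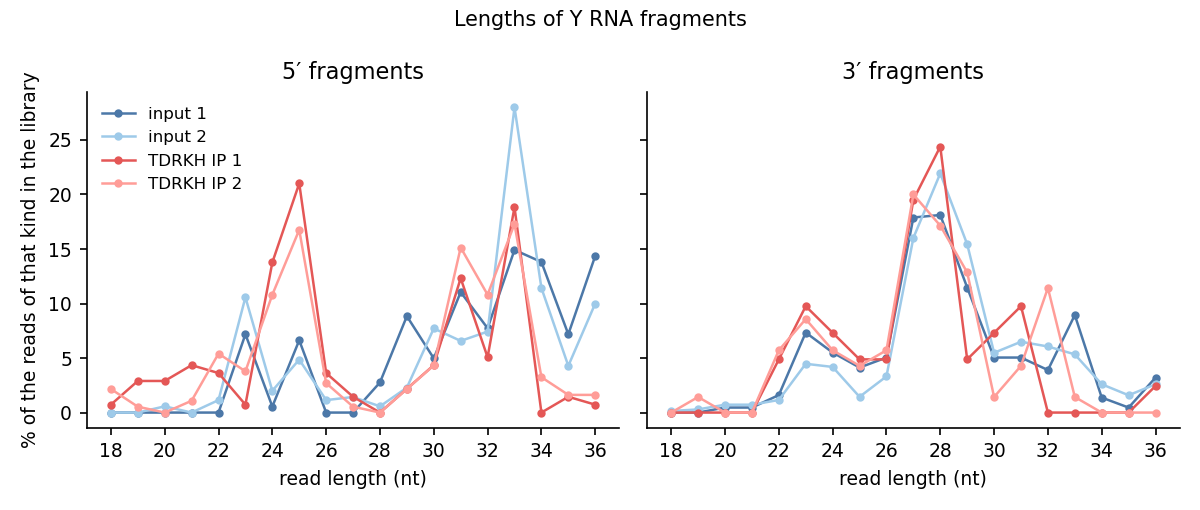
Length of 5′ fragments (left) and 3′ fragments (right) in nt, as % of the reads of that kind in each library. 5′ fragments of 24 or 25 nt are 7.18% and 6.86% in the inputs and 34.8% and 27.6% in the TDRKH IPs, while 3′ fragments peak at 27 to 29 nt in the inputs.

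The ends of the 3′ fragments were uneven. Those ending in a run of 2 T were 28.2% and 26.4% of 3′ fragments in the inputs and 39.0% and 25.7% in the IPs, and those ending in 3 T were 18.1%, 23.2%, 12.2% and 17.1%. Another 25.9% and 21.6% in the inputs and 17.1% and 17.1% in the IPs ended in T followed by A. These include reads that stop at the A right after TTGACT, 42, 20, 4 and 7 in group B and 2, 7, 1 and 0 in group C. In the longer printed reads of these groups further bases follow that A. Whether the last A of the other reads is encoded cannot be read from the files. In group A, the reads that began 16 bases before TTGACT, where the printed sequences begin, were 51.0% and 52.8% of its 3′ fragments in the inputs, and 43.5% and 55.0% in the IPs.

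The printed 5′ and 3′ fragments of a group can pair with each other over part of their length. Counting A-T, G-C and G-T pairs, the longest run in group A was 10 pairs, between positions 12 to 21 of the 33 nt 5′ fragment and 4 to 13 of the 28 nt 3′ fragment. In group B it was 9 pairs, positions 13 to 21 with 4 to 12, and in group C 8 pairs, positions 1 to 8 with 18 to 25. Only the longest run of each group is given. The printed letters of groups A and B also allow a run at the ends, and those of group C an inner run. The positions therefore do not set the groups apart. Positions count from 1 at each fragment's 5′ end, and a run of pairs is a description of the letters only.

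The 13 names fell into 4 groups that share sequences. Group A held ENSBTAG00000042676.1, ENSBTAG00000043492.1 and ENSBTAG00000045068.1 with 359 sequences. Group B held 6 names, ENSBTAG00000042081.1, ENSBTAG00000042761.1, ENSBTAG00000042814.1, ENSBTAG00000042907.1, ENSBTAG00000042927.1 and ENSBTAG00000043086.1, with 271 sequences. Group C held ENSBTAG00000043461.1, ENSBTAG00000043304.1 and ENSBTAG00000042817.1 with 263. Group D was ENSBTAG00000043936.1 alone, with 9 sequences and 6, 5, 0 and 1 reads in the order input 1, input 2, IP 1, IP 2. None of the 13 IDs was matched to a gene symbol, so no Y RNA subtype is given, and their coordinates are not used here.

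Group A was the largest in input. It was at 300 and 480 RPM in the inputs and 7.54 and 10.1 in the IPs, 44.2-fold lower, with a log2 change of -5.47 ± 0.32 (edgeR adjusted p = 1.16e-07). Group B was at 212 and 215 RPM in the inputs and 4.40 and 8.41 in the IPs, 33.3-fold lower, -5.06 ± 0.32 (adjusted p = 2.49e-07). Group C was at 166 and 159 RPM in the inputs and 6.28 and 6.60 in the IPs, 25.2-fold lower, -4.65 ± 0.25 (adjusted p = 7.67e-08), and turned to 0.10 (adjusted p = 0.593) with microRNA reads as the library size. With that library size groups A and B were at -0.72 (adjusted p = 0.116) and -0.33 (adjusted p = 0.331), so that neither was called. No group overlapped between input and IP, and in that fit 82.8% of 29 features were lower and 10.3% higher.

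In groups A, B and C alike, the 5′ share of each IP lay above that of each input. In group A it was 26.5% and 31.1% of the group's reads in the inputs and 60.7% and 57.1% in the IPs. In group B it was 20.96% and 27.8% against 67.3% and 63.4%, and in group C 26.3% and 31.2% against 77.1% and 84.9%. Group C had the highest 5′ share in both IPs and the smallest fold between input and IP for its 5′ fragments, 8.90-fold, against 12.6-fold in group B and 22.1-fold in group A. Its 3′ fragments had the largest, 238-fold, against 78.4-fold in group B and 83.7-fold in group A, and in IP it rests on a few reads. Differences between the groups were not tested.

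The short 5′ fragments came mostly from group A in the inputs, with 17 of 26 and 43 of 71 reads, and from groups B and C in the IPs, where group A gave 16 of 74 and 15 of 80. Reads of at most 26 nt were 0% and 17.3% of group B's 5′ fragments in the inputs and 66.7% and 44.1% in the IPs. In group C they were 19.1% and 20.9% against 66.7% and 62.9%. In group A they were 19.8% and 21.3% against 31.4% and 23.4%, a smaller gap. Group A had its mode at 33 nt in 3 of the libraries and shared it with 36 nt in input 1, with 22, 90, 24 and 29 reads, while its 36 nt 5′ reads numbered 22, 33, 1 and 2.

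**Figure D3:**
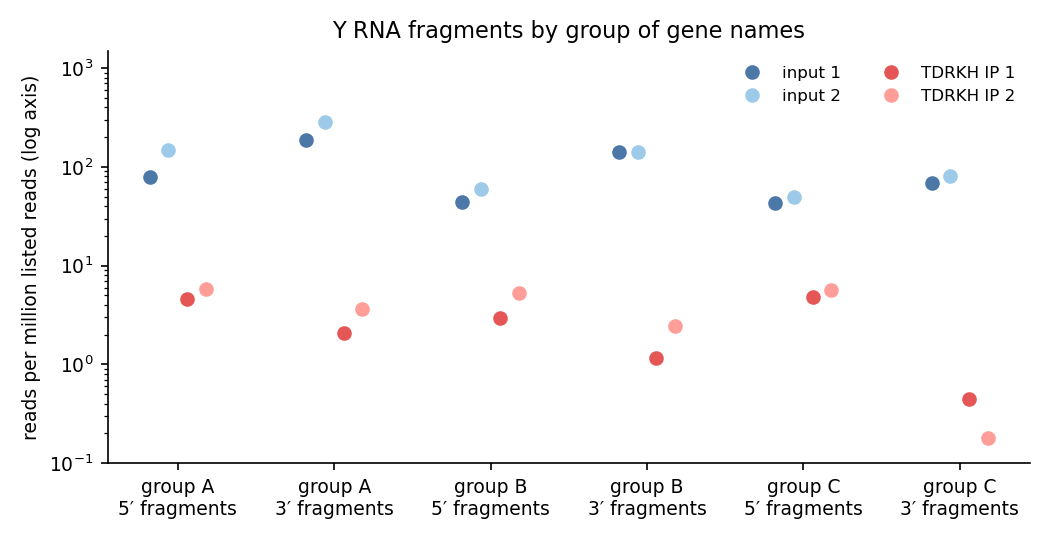
RPM (log axis) of 5′ and 3′ fragments of groups A, B and C in each of the 4 libraries, 1 point a library. With all listed reads as the library size every IP point lies below both inputs. With microRNA reads as the library size the change of 5′ fragments over all groups turned to 0.87, and that of all group C reads, both ends and the rest together, to 0.10.

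In the inputs the most abundant Y RNA sequences were group A fragments. Of the 902 Y RNA sequences 6 reached 10 RPM in 2 libraries, all through the inputs. They had to lie lower in the IPs, so their log2 changes are given as a description, with no test. The group A 33 nt 5′ fragment was read 18 and 64 times in the inputs and 22 and 29 times in the IPs, which is 16.7, 47.3, 1.98 and 2.62 RPM. Its log2 change was -3.83 ± 0.42, but 0.92 with microRNA reads as the library size. The group A 36 nt form, 3 bases longer, was read 17, 26, 1 and 2 times, and its log2 change was -6.82. The group A 28 nt 3′ fragment was read 31, 59, 3 and 4 times and changed by -6.77, and the 27 nt form, 1 T shorter, was read 26, 44, 3 and 5 times and changed by -6.23. All 6 were lower in the IPs, where of 11786 sequences tested 19.9% were lower and 41.9% higher, and nothing is read from that count.

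After the 33 nt form, the sequences with the most IP reads were the group C 25 nt, 31 nt and 24 nt forms and the group B 25 nt form. The group C 25 nt fragment was read 7, 6, 19 and 16 times. Summed over each group this gave an IP to input rate ratio of 0.295, with an exact 95% counting interval of 0.152 to 0.608. The group C 31 nt form was read 5, 9, 11 and 12 times, a ratio of 0.180 (0.0888 to 0.378). The group C 24 nt form was read 1, 1, 11 and 10 times, a rate ratio of 1.15 (0.281 to 10.1), and the group B 25 nt form 0, 2, 9 and 11 times, a ratio of 1.10 (0.266 to 9.67). The ratio of the group A 33 nt form was 0.0682 (0.0471 to 0.0979). These intervals cover counting error only and compare these libraries, so for the 24 nt and 25 nt forms named last a lower share in IP could not be told at this depth. All 5′ fragments of 24 or 25 nt had a ratio of 0.293 (0.199 to 0.440), made up of 0.0365 in group A, 0.517 (0.225 to 1.38) in group B and 0.378 (0.220 to 0.678) in group C.

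The group B 34 nt 5′ fragment, a long form, was read 11, 23, 0 and 5 times, a rate ratio of 0.0161 (0.00492 to 0.0414). The group C 27 nt 3′ fragment was read 8, 2, 2 and 0 times.

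The named 3′ fragments of group B had fewer reads in the deeper IP libraries than in the inputs when summed over each group. The group B 28 nt 3′ fragment was read 9, 25, 2 and 4 times, and a 23 nt group B form, which ends 1 base after TTGACT, 14, 2, 1 and 3 times. The input reads of that short form lay mostly in 1 library.

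Of the 13 names, 8 passed the count filter of the fit over 5452 names, and 5 of these reached its cutoff of 1.61 RPM in both inputs but not in both IPs, so that they had to lie lower in the IPs. All 8 were lower, with log2 changes from -5.99 to -4.60, where 58.5% of all names were lower and 16.4% higher, and nothing is read from that count. The lowest value was that of ENSBTAG00000042814.1 at -5.99 ± 0.32, a description since it passed through the inputs. The 3 names that reached the cutoff in both IPs as well were ENSBTAG00000042676.1 at -5.69 ± 0.26 (edgeR adjusted p = 1.80e-06), ENSBTAG00000043492.1 at -5.17 ± 0.26 (adjusted p = 3.25e-06) and ENSBTAG00000043461.1. With microRNA reads as the library size ENSBTAG00000043492.1 was at -0.41 (adjusted p = 0.214) and no longer called. The value nearest to 0 of the 8 was that of ENSBTAG00000043461.1 at -4.60 ± 0.12 (adjusted p = 1.08e-07), which turned to 0.14 with microRNA reads as the library size. This name held 164, 209, 70 and 72 reads that no other name shared. Some other names had such reads too, and ENSBTAG00000042676.1 had 98, 193, 6 and 12. Many sequences fit several names of a group and were divided among them, so values of single names within a group are uncertain.

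The first base of Y RNA reads set them apart from the rest of the libraries. T, the usual first base of piRNAs, began 14.8%, 7.15%, 7.88% and 7.89% of Y RNA reads in the order input 1, input 2, IP 1, IP 2, against 82.4%, 82.6%, 88.2% and 87.4% of all listed reads. G, the first base of the 5′ fragments, began 30.6% ± 2.71 of Y RNA reads in input and 68.6% ± 1.21 in IP. An A at base 10, which marks piRNAs made by the cutting cycle of PIWI proteins, was at 18.8% and 12.6% of Y RNA reads in the inputs and 7.39% and 8.96% in the IPs. Neither piRNA feature was more common among the Y RNA reads of the IPs than among all listed reads. The letters of the 5′ fragments largely fix this: each begins with G, and base 10 of their full start is G. The values thus follow in part from the 5′ share, and nothing about piRNAs is read from them.

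Sequence variants took a smaller share in the IPs. Reads that differed by 1 base from a Y RNA sequence with at least 10 reads were 18.4% and 17.6% of Y RNA reads in the inputs and 2.46% and 5.73% in the IPs. Among 5′ fragments they were 19.9%, 22%, 2.17% and 4.86%, and among 3′ fragments 17.2%, 13.6%, 4.88% and 7.14%. Such reads may be other gene copies or reading errors, which were not told apart. The inputs held 806 distinct Y RNA sequences and the IPs 183, of which 87 were shared, 10.8% of the first and 47.5% of the second.

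Against other RNAs made by RNA polymerase III and small structural RNAs, Y RNA lay near 7SL and far from 7SK. Of 8 such families listed, 6 could be tested: 4 fell, RNase P RNA among them on few reads, 1 rose and 1 did not pass. Over all 27 families tested 81.5% were lower and 11.1% higher, and nothing is read from that count. 7SL, the RNA of the signal recognition particle that brings ribosomes to the endoplasmic reticulum, was at 211 RPM in input and 9.55 in IP, -4.47 ± 0.30 (edgeR adjusted p = 3.46e-20), and at 0.29 with microRNA reads as the library size. 7SK, which holds back the transcription factor P-TEFb, went from 2497 to 3712 RPM, 0.57 ± 0.13 (adjusted p = 9.27e-05), and was higher under each scaling. RNase P RNA, which cuts tRNA precursors, had 9 and 3 reads in the inputs and 4 and 3 in the IPs. It passed the count filter only through the inputs, so its log2 change of -3.89 is a description. With microRNA reads as the library size that change was 0.75. 5S ribosomal RNA was at -1.22 (adjusted p = 1.95e-08) and U6, the spliceosome RNA, at -0.51 (adjusted p = 0.0120). With TMM factors 5S turned to 0.40 and U6 to 1.10, and with microRNA reads or DESeq2's own size factors they were higher too. U6atac, of the minor spliceosome, was at -0.12 (adjusted p = 0.784). Vault RNA and RNase MRP RNA had too few reads to test.

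Ratios between families do not depend on the library size. The log2 ratio of Y RNA to 7SL reads was 1.75 and 1.97 in the inputs and 0.95 and 1.38 in the IPs. The log2 ratio to 7SK reads was -1.72 and -1.67 in the inputs and -7.66 and -7.21 in the IPs. Against the 5′ tRNA fragments that are cut in the anticodon loop, which fell from 12731 to 45.3 RPM, the log2 ratio was -4.07 and -4.03 in the inputs and -1.19 and -0.96 in the IPs, higher in the IPs. Each ratio separated the groups, with an exact permutation p of 0.333.

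**Figure D4:**
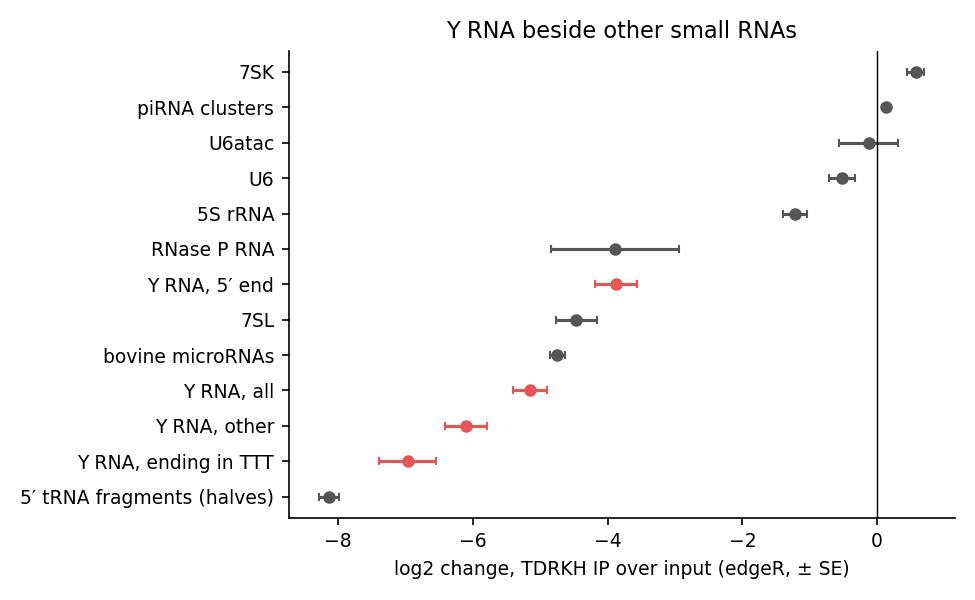
Log2 change of TDRKH IP over input with its SE from edgeR, for Y RNA as a whole and by end (red) and for other RNA families (grey), with all listed reads as the library size. Y RNA 5′ ends lie at -3.88 and reads ending in TTT at -6.97. Reads ending in TTT and RNase P RNA reached the count filter's cutoff in both inputs but not in both IPs, so their points are a description. With microRNA reads as the library size the 5′ ends, 7SL, RNase P RNA, U6atac, U6 and 5S values turn to above 0, and with TMM factors or DESeq2's own size factors those of 5S, U6 and U6atac.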

How the data were processed

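Per the labels, RNA was taken up in TRIZOL and built into libraries with a NEXTflex kit for small RNA. The authors deposited 1 annotation table a library, made with unitas per the file names, which gives each distinct sequence, its read count and the names it matched. Genome build and settings: not given in the sources used here. The deposited counts are whole reads.

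Y RNA rows were those with a name of family RF00019. Rows with more than 1 name were split evenly over the names, and sums were rounded. Levels are reads scaled to 1000000 listed reads (RPM). Changes were tested with edgeR 4.0.16 (glmQLFit, glmQLFTest) in R 4.3.3, with listed reads as the library size and Benjamini-Hochberg adjustment over all features of a fit; adjusted p under 0.05 was called. Names passed filterByExpr, sequences needed 10 RPM in 2 libraries. Other steps used Python 3.11.15 with pandas 2.3.3 and scipy 1.17.1. The fits were also run on simulated data in which a part of the features changed, in both directions. Here most families were lower in the IP, so nothing about these fits is read from that run. DESeq2 1.42.0, other library sizes, filters, ways to divide rows, and leaving out each library were tried as alternatives.

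The sequences named were the 5 with the highest mean RPM in each group of libraries and the 3 highest in each end class, and the names the 10 with the most reads. The group C 3′ fragment, the 3′ class by TTGACT, the groups of names and the length classes were chosen after seeing the data. Members and lists were chosen with earlier results of these data known. The replicate libraries differed by more than sampling noise in both groups.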

Additional observations from a re-analysis of the deposited data

How the results depend on the processing

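The library size mattered most. With microRNA reads as the library size the total change was -0.41 (adjusted p = 0.0972), the 5′ change turned to 0.87, group C to 0.10, ENSBTAG00000043461.1 to 0.14 and the group A 33 nt sequence to 0.92, while 2 names were lower. TMM factors gave -3.53 for the total and moved the median of all families from -1.98 to -0.36, and DESeq2 with its own size factors gave -3.26 and -0.10. With rows of a single name 5 names were lower. At 5 RPM 12 sequences were lower, and at 20 RPM 2. The gain in the 5′ share was 39.8 points, 55.2 with rows of a single name, 22.6 with each distinct sequence counted once and 44.9 with reads of 18 to 32 nt. Leaving out each library in turn gave -5.40 to -4.93 for the total, -4.15 to -3.52 for 5′ and -7.77 to -6.44 for 3 T ends. For the class of all other Y RNA reads in the fit by end it gave -6.31 to -5.91. The gain in the 5′ share was then 36.998 to 42.6 points. The group A 33 nt sequence ranged from -4.35 to -2.85. With 1 library left in a group, its spread was taken to be that of the other. The labels do not say whether input and IP of the same replicate number share oocytes. Differences between replicates 1 and 2 in input and in IP had a correlation of 0.0116 over 5452 names. That value cannot show whether the libraries are paired, since paired libraries can also differ by technical spread alone. With a replicate block the total was -5.15, with no call changed. The 203 and 279 Y RNA reads of the IPs limit single sequences most.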
